A study of Mus musculus with 16 samples.

Results

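The comparison set 2 arrays of induced pluripotent stem (iPS) cells labelled EpiSC iPS against 2 arrays of 129 embryonic stem (ES) cells labelled mESM. These were 4 of the 16 arrays of a mouse series that also holds epiblast stem cells (EpiSC), EpiSC-like lines and NOD ES lines, and they were chosen by their titles. The iPS arrays are titled iPS_EpiSC 3M and iPS_EpiSC 1K, and both are labelled non-NOD in strain, as are the mESM arrays, where NOD stands for the non-obese diabetic mouse. The mESM arrays are of passage 8 and carry 1 source label, so they may come from 1 culture. No passage is given for the iPS arrays, and the factors used to make these cells, the number of clones and the meanings of 3M, 1K and mESM are stated by no label read here. Also used beside them were 1 array of 129 ES cells labelled epiESM (passage 8), 2 arrays of EpiSC (passages 12 and 20) and 3 arrays of NOD ES cells. RNA of ES lines was taken after embryonic fibroblasts had been reduced by preplating, and EpiSC colonies were picked apart mechanically, per the labels' protocols. The labels do not say which of these ways was used for the iPS cells.

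ES cells are held in the naive state of pluripotency, which resembles the inner cell mass and depends on signalling by leukaemia inhibitory factor (LIF) through STAT3. EpiSC come from the later epiblast and are held in the primed state, which depends on FGF and activin signalling. Both states share the core factors Oct4 (Pou5f1), Sox2 and Nanog, while naive cells also express Esrrb, Zfp42 and Klf4, and primed cells express Fgf5 and Otx2. Primed cells can be returned to an ES-like state by added transcription factors or by culture, and the cells labelled EpiSC iPS bear the name of that route. Such cultures are commonly grown on embryonic fibroblasts, and imprinted genes, which are expressed from 1 parental copy, are known to vary between pluripotent lines.

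Before the results, the arrays were set against their labels. Every level below is a log2 signal relative to the 75th percentile of its own array. Among probes well above background on both arrays of a pair, the array labelled iPS_EpiSC 1K differed from NOD ES 43 KP/CH with an SD of 0.387 and from NOD ES 85 KP with an SD of 0.397. It differed from iPS_EpiSC 3M with an SD of 0.963 and from the mESM arrays with SDs of 0.843 and 0.841. The 3M array was closest to NOD-ES 4K (0.697), followed by epiESM (0.937), and its SDs from the mESM arrays were 1.23 and 1.23. These SDs rest on unlike probe sets, with 10122 probes for NOD-ES 4K, 20514 for epiESM and 20495 and 20491 for mESM. The 3M, 1K and NOD-ES 4K arrays also shared slide 6. The part of probe set and slide in these distances was not tested. The 1K array therefore lay nearer to 2 NOD ES arrays than to the other array of its own label, and the 3M array lay nearer to an array labelled NOD than to any non-NOD array. The mESM arrays differed from each other with an SD of 0.20.

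Probes that separated strains were sought without 3M, 1K and NOD-ES 4K, by a gap between all 8 other NOD arrays and all 5 other non-NOD arrays. A gap of 2 log2 units left 0 probes. With a gap of 0.5, chosen after the data were seen, there were 32 probes of 31 genes, and 1K was nearer to the NOD mean for 28 of them, 3M for 16 and NOD-ES 4K for 15. Among them a probe of Trpv3, a heat-sensitive ion channel of skin, read -1.07 on the 1K array, while on the 3M array (-4.90) and on both mESM arrays (-7.09 and -7.04) it was not well above background. The array labelled iPS_EpiSC 1K thus goes against its strain label on most of these probes, and 3M gives no clear strain. No array was moved to another group. The counts of each gene list are given for both iPS arrays together and for each apart, or for each apart alone, and wherever a direction rests on 1K it rests on the library labelled iPS_EpiSC 1K.

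**Figure D1:**
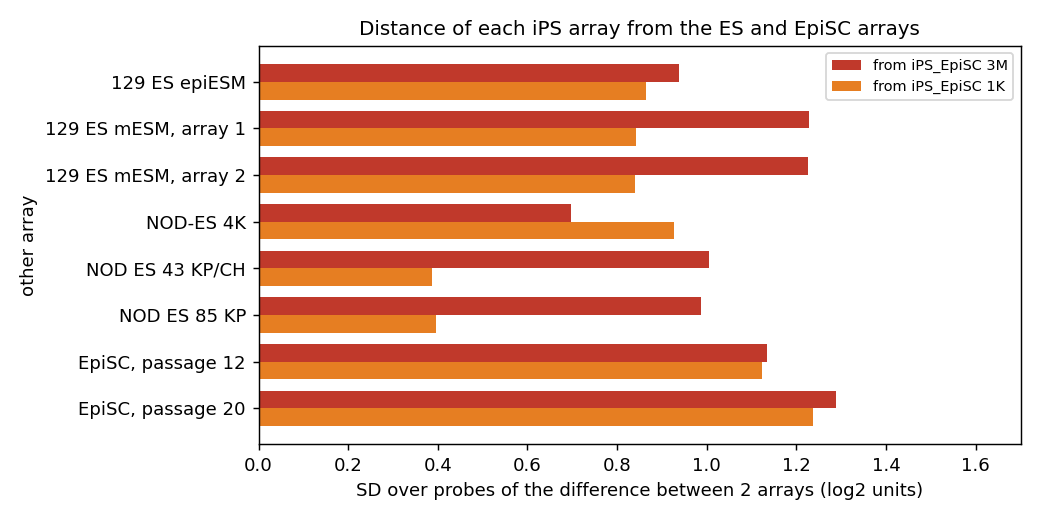
Bars give the SD over probes of the log2 difference between each iPS array and 8 other arrays, in log2 units. Each bar uses the probes well above background on both its arrays, so the probe sets differ between bars. The bars from iPS_EpiSC 1K to NOD ES 43 KP/CH and NOD ES 85 KP (0.387 and 0.397) are the shortest, and those from iPS_EpiSC 3M to the mESM arrays (both 1.23) are longer than the one to NOD-ES 4K (0.697).

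Of 23161 genes tested with limma over all 16 arrays, 1581 were higher (6.83%) and 879 lower (3.80%) in both iPS arrays together than in mESM at an adjusted p under 0.05. "Rose" and "fell" are used below of such genes alone, and errors are limma's standard errors. With each iPS array as its own mean, 3M had 2882 genes higher (12.4%) and 1748 lower (7.55%), and 1K had 916 higher (3.96%) and 699 lower (3.02%). A lone array was assumed to vary like the arrays of the other groups. The epiESM array, from 129 ES cells as well, had 554 genes higher (2.39%) and 360 lower (1.55%) than the same mESM arrays, which all these comparisons share. The median over all genes was 0.08 for both iPS arrays, 0.15 for 3M and 0.09 for 1K. The shares of all genes given here are the background for the list counts below, and no list was tested as a set. In both iPS arrays together 7.14% of primed markers and 6.67% of mesendoderm genes rose, and the same shares fell, each from 1 gene. Among DNA methylation enzymes 1 gene (12.5%) rose and 0 fell.

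These counts moved with the choice of arrays and scaling. Without mESM array 1, and likewise without mESM array 2, the count for both iPS arrays was 269 genes, and without NOD-ES 4K, which stands apart from the other NOD ES arrays, it was 5130. Quantile normalization gave 1158 genes higher and 1119 lower, and the authors' deposited log2 values gave 1126 higher and 1302 lower, so the excess of higher genes depended on the scaling. For 3M the deposited values gave 2596 higher and 2488 lower. Both iPS arrays lay on slide 6 with NOD-ES 4K and both mESM arrays on slide 5, and the 2 slides share no group, so slide and group cannot be told apart directly. On slide 6 only NOD-ES 4K belongs to a group that also lay on another slide, so any correction for slide 6 rests on that 1 array. Only 26.3% of its gene spots were well above background. With slide as a fixed block, which reaches the comparison through other groups, 269 genes were higher and 1348 lower for both iPS arrays, 4705 and 5315 for 3M and 5037 and 6046 for 1K. Gene spots well above background made up 51.2% on 3M and 40.5% on 1K, against 72.6% on each mESM array, so low levels are less well measured on the iPS arrays. Of the falls in both iPS arrays, 357 genes were not well above background on either iPS array and have only a bound. For 70 of these the bound was 0, so no fall in level is shown. Of the rises, 57 were not well above background on any of the 4 arrays and have no fold. Most of the falls in 1K were of genes not well above background on that array, and part of them had a bound of 0. In 3M this held for a smaller part of the falls. Of the 56 called genes whose values for both iPS arrays are given or plotted below, 23 had the other sign when the epiESM array took the place of mESM, a setting that is counted apart from the others below. In the other alternative settings all 56 kept their direction wherever they were tested. Their call was kept by 26 without mESM array 1 and likewise by 26 without mESM array 2, by 12 with slide as a fixed block, by 11 with epiESM pooled with mESM and by 4 with the normexp background correction. With only the 4 arrays fitted, 0 genes passed at all in limma (5634 had an unadjusted p under 0.05).

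Core genes read near their mESM level on 1K, apart from Tdgf1, and Sox2 and Tdgf1 fell in 3M. Across the 11 core genes tested, 0 rose and 1 fell in both arrays together, with a median of -0.36. In 3M alone 2 fell (median -0.98), and in 1K 0 fell (median 0.06). Pou5f1, which encodes Oct4, read 2.27 on 3M and 4.70 on 1K, against 4.45 and 4.43 on the mESM arrays. Only 3M lay below the mESM arrays, and its difference of -2.17 ± 0.78 did not pass (limma adjusted p = 0.0792). Nanog, the homeobox factor of the same circuit, read 1.09 on 3M and 3.86 on 1K, against 3.90 and 3.81 in mESM. Here 1K lay between the mESM arrays, and the 3M difference of -2.76 ± 1.08 did not pass (limma adjusted p = 0.106).

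Sox2, the partner of Oct4 on DNA, fell in 3M. It read 1.40 on 3M and 3.84 on 1K, against 3.76 and 3.72 in mESM. The 3M array was below all others of this comparison, with a log2 difference of -2.34 ± 0.58 (limma adjusted p = 0.0187). This call was kept in 8 of 15 alternative settings. Tdgf1, the Nodal co-receptor Cripto, fell in both iPS arrays together. Its levels were 0.41 on 3M and 2.25 on 1K, against 4.13 and 4.12 in mESM, so the groups did not overlap. The log2 difference was -2.79 ± 0.66 for both (limma adjusted p = 0.0223), -3.71 ± 0.69 for 3M (adjusted p = 0.00469) and -1.88 ± 0.69 for 1K, which did not pass (adjusted p = 0.135). The epiESM array read 1.76, between the iPS arrays. Dppa4, a chromatin-bound pluripotency protein, and Lin28a, the inhibitor of let-7 maturation, did not pass in any of these comparisons. Dppa4 read 2.75 and 3.47 in iPS, against 3.45 and 3.48 in mESM, and was not well above background in EpiSC.

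Naive markers were mostly without a called difference from mESM, and Gbx2 fell on both iPS arrays. Of 18 tested, 0 rose and 1 fell in both iPS arrays together (median 0.27), and the same counts held for 3M (median -0.44) and for 1K (median 1.34). Dppa5a, an RNA-binding protein of naive cells, read 9.41 on 3M and 9.14 on 1K, against 9.12 and 9.10 in mESM. The 4 arrays were alike, while the EpiSC arrays read -0.96 and -0.84, but in the authors' deposited log2 values 3M was lower than mESM (difference -1.19). Zfp42 (Rex1), a zinc-finger protein long used as a naive marker, read 4.52 on 3M and 5.73 on 1K, against 4.80 and 4.82 in mESM. The mESM arrays lay between the iPS arrays, and in EpiSC the probe was not well above background.

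Other naive factors split the iPS arrays. Esrrb, an orphan nuclear receptor of the naive circuit, read 2.12 on 3M and 5.05 on 1K, against 3.82 and 3.81 in mESM. Tfcp2l1, a factor downstream of LIF, read 2.32 on 3M and 5.72 on 1K, against 3.94 and 3.92 in mESM. For both genes 3M was the lowest of the 4 arrays and 1K the highest, and the difference of 3M minus 1K did not pass (limma adjusted p = 0.211 for Esrrb and 0.258 for Tfcp2l1). Klf4, a Krüppel-like factor that is also used for reprogramming, read 5.94 on 3M and 7.60 on 1K, against 5.78 and 5.77 in mESM, and only 1K stood apart. Klf2, its relative, read 6.89 and 6.65 in iPS, against 7.68 and 7.67 in mESM. Both iPS arrays were lower there, but the difference of -0.91 ± 0.44 did not pass (limma adjusted p = 0.225).

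Dppa3 (Stella), a protein that guards the egg's DNA methylation, read 3.78 on 3M and 0.78 on 1K, against 0.33 and 0.31 in mESM and 4.64 in epiESM. The 3M array was high, near epiESM, and its difference from mESM of 3.46 ± 1.15 did not pass (limma adjusted p = 0.0611). Tdh, threonine dehydrogenase, on which ES cells depend for growth, read 6.92 and 7.71 in iPS, against 6.09 and 6.09 in mESM. Both iPS arrays were higher, without passing (limma adjusted p = 0.152). Gbx2, a homeobox target of LIF and STAT3 in ES cells, was the naive marker that fell in each of these comparisons. It read -1.67 on 3M and -1.74 on 1K, against 0.67 and 0.64 in mESM, and the groups did not overlap. The log2 difference was -2.36 ± 0.44 for both arrays (limma adjusted p = 0.00806), -2.32 ± 0.56 for 3M (adjusted p = 0.0168) and -2.39 ± 0.56 for 1K (adjusted p = 0.0339). Against epiESM, which read 1.35, the difference for both together was -3.05 ± 0.54 and did not pass (limma adjusted p = 0.0551), and the differences were -3.02 ± 0.65 for 3M (limma adjusted p = 0.0397) and -3.09 ± 0.65 for 1K (adjusted p = 0.0369). The EpiSC arrays read -3.25 and -2.70, lower still. NOD ES 43 KP/CH and NOD ES 85 KP read -1.32 and -1.54, near the iPS arrays, and on NOD-ES 4K the probe was not well above background. The call for both arrays was kept in 11 of 17 alternative settings.

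Among 14 primed markers, 1 rose and 1 fell in both iPS arrays together (median 0.07), 4 rose and 1 fell in 3M (median 0.37), and 1 rose and 1 fell in 1K (median 0.09). Fgf5, the ligand that marks the primed epiblast, read -1.76 on 3M, against -6.61 and -6.83 on the mESM arrays, where it was not well above background. It rose in 3M, where it was at least 9.04-fold higher (limma adjusted p = 3.11e-05). On 1K the probe was not well above background either, so no fold is given there although the test passed. In EpiSC the probe read 2.94 and 2.93, far above the ES and iPS arrays used here. Otx2, a homeobox factor of primed cells, read -2.53 on 3M and -0.67 on 1K, against -1.99 and -2.0 in mESM and 2.39 and 2.47 in EpiSC. The mESM arrays lay between the iPS arrays, and the difference for both did not pass (limma adjusted p = 0.741).

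Sox11, an SRY-box factor of the epiblast and of neural precursors, moved opposite to Fgf5. It read -1.80 on 3M and -1.15 on 1K, against 0.23 and 0.22 in mESM, and 3.12 and 3.08 in EpiSC. It fell in both iPS arrays together, with a difference of -1.70 ± 0.33 (limma adjusted p = 0.00959), which puts them farther from EpiSC than mESM were. Fgf8, a ligand of the gastrulating embryo, rose in 3M by 2.16 ± 0.31 (limma adjusted p = 0.00136). It read 0.83 on 3M and -1.35 on 1K, against -1.30 and -1.36 in mESM and 0.67 in epiESM. The 3M array was near epiESM and 1K near mESM, and the 2 iPS arrays differed by 2.18 ± 0.36 (adjusted p = 0.00944), a sign that turned when all probes of the gene were averaged. Cdh2, N-cadherin, and Pou3f1 (Oct6) also rose in 3M. Cdh2 read -1.19 there, against -4.42 and -4.16 in mESM (difference 3.09 ± 0.58, limma adjusted p = 0.00501), and Pou3f1 read 3.71, against 2.61 and 2.62 in mESM (difference 1.09 ± 0.30, adjusted p = 0.0299). Sfrp2, a secreted Wnt antagonist, fell in 1K, where it was not well above background and at least 3.06-fold lower (limma adjusted p = 0.0362).

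**Figure D2:**
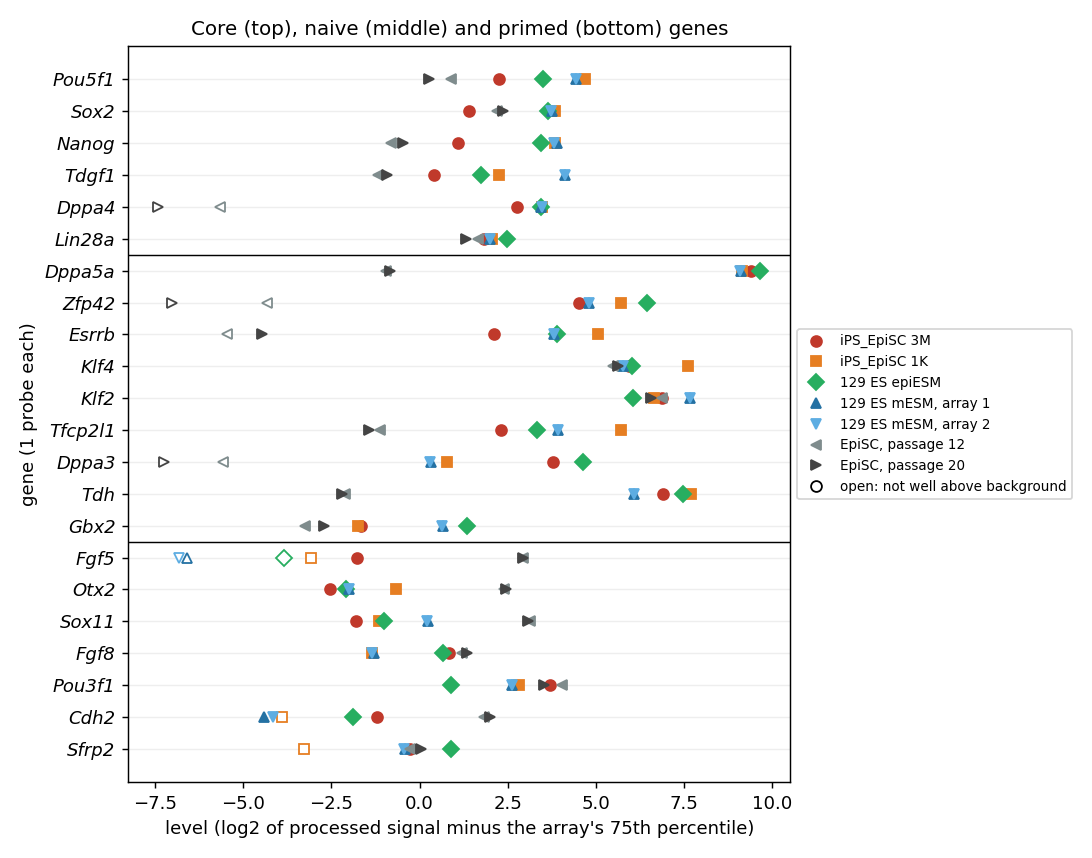
Points give the level of 22 core, naive and primed genes on each array (log2 signal relative to the 75th percentile of each array), with open symbols where the probe was not well above background. Both iPS arrays lie with the ES arrays for Dppa5a and Zfp42 and far from EpiSC, 3M lies below mESM for Pou5f1, Sox2 and Nanog, and Gbx2 is low on both iPS arrays (-1.67 and -1.74).

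Fibroblast genes had the largest share of called members of the 29 lists in both iPS arrays together. Of 20 tested, 14 rose and 0 fell in both iPS arrays together (median 3.56). In 3M 18 rose (median 5.02), and in 1K 9 rose (median 1.89). The epiESM array had 12 of the same genes higher than mESM (median 4.12), and against epiESM in place of mESM 0 of the 20 rose in 3M and 4 fell in 1K. The median level over the list was 3.79 on 3M and 1.13 on 1K, against -1.45 and -1.28 on the mESM arrays and 3.38 on epiESM. It was 2.675 on NOD-ES 4K, and 1.16 and 1.04 on the other NOD ES arrays, near 1K. The mESM arrays thus had the lowest list level of the arrays used here, below the NOD ES arrays as well. All 20 genes of the list were well above background on 3M and 17 on 1K, against 18 and 17 on the mESM arrays. In bulk RNA, more cells of a type and more RNA per cell cannot be told apart, and the part of fibroblasts in the other results was not tested.

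Postn (periostin), a matrix protein of fibroblasts, read 3.12 on 3M and 0.59 on 1K, against -5.38 and -5.42 on the mESM arrays, where it was not well above background. Both iPS arrays were high, and Postn rose at least 111-fold in both together (limma adjusted p = 0.000468), at least 267-fold in 3M and at least 46-fold in 1K. Col1a1, the main chain of type I collagen, read 6.87 on 3M and 3.67 on 1K, against 1.01 and 0.99 in mESM. The groups did not overlap, with a difference of 4.27 ± 0.84 (limma adjusted p = 0.00953), but 1K lay between mESM and 3M. The collagen chain Col3a1 followed the same order, with 3.81 on 3M and 1.66 on 1K, against -2.91 and -2.83 in mESM. Its difference was 5.60 ± 0.61 (limma adjusted p = 0.000799). Dcn (decorin), a small matrix proteoglycan, read 2.50 on 3M and -1.41 on 1K, against -4.02 and -3.99 in mESM, and it differed between the iPS arrays by 3.91 ± 0.25 (adjusted p = 0.000208).

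S100a4, a calcium-binding protein called fibroblast-specific protein, read 7.58 on 3M and 3.94 on 1K, against 0.44 and 0.46 in mESM. It rose in both iPS arrays by 5.31 ± 0.96 (limma adjusted p = 0.00697). Thy1, a surface glycoprotein of fibroblasts, rose by 3.75 ± 0.94 in both together (limma adjusted p = 0.028) and by 5.59 ± 0.68 in 3M (adjusted p = 0.000598), while the 1K difference of 1.91 ± 0.68 did not pass (adjusted p = 0.123). Lum (lumican), which organizes collagen fibrils, rose in 3M alone of the 2 arrays. It read -0.50 on 3M, against -4.62 and -4.54 in mESM, was not well above background on 1K, and was at least 2.91-fold higher in 3M than in 1K (limma adjusted p = 0.00181). Fn1 (fibronectin), which fibroblasts and other cells make, did not pass and read 3.78 and 3.08 in iPS, against 3.40 and 3.39 in mESM.

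Leading rises outside the list included genes of matrix and secretion. Mmp3 (stromelysin), a matrix-cutting protease, read 0.69 on 3M and -0.57 on 1K, against -6.89 and -7.17 in mESM, where it was not well above background. Both iPS arrays were high and near the epiESM array (-0.38), and Mmp3 rose at least 32-fold (limma adjusted p = 1.08e-05). Il1rl1, the receptor of interleukin 33, read -0.49 and -1.86 in iPS and was not well above background in mESM, a rise of at least 13.6-fold (limma adjusted p = 4.35e-05). Fst (follistatin), which binds activin, read 2.42 and 0.57 in iPS, against -4.17 and -4.31 in mESM, and rose by 5.74 ± 0.47 (adjusted p = 0.000182). These 3 calls were kept in 14, 14 and 15 of 17 alternative settings. Grem1 (gremlin), a BMP antagonist, rose by 5.63 ± 0.91 (limma adjusted p = 0.00458), and Prrx1, a homeobox factor of mesenchyme, by 6.34 ± 1.21 (adjusted p = 0.00837). From epiESM in place of mESM, the differences for both together were -0.36 ± 1.12 for Grem1 and -0.02 ± 1.48 for Prrx1. Those for Mmp3, Il1rl1 and Fst stayed positive, at 0.44 ± 0.44, 0.36 ± 0.47 and 1.14 ± 0.58. Prrx1 stood far apart between the iPS arrays, with 4.04 on 3M and -0.76 on 1K, against -4.47 and -4.93 in mESM.

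Keratins rose beside the fibroblast genes. Of 13 epithelial genes, 4 rose and 0 fell in both iPS arrays together (median 0.01), and the risers were Krt8, Krt18, Krt19 and Esrp2. In 3M 4 rose and 1 fell, and in 1K 4 rose and 0 fell. Krt8, a keratin of simple epithelia, read 7.36 on 3M and 4.58 on 1K, against 2.07 and 2.01 in mESM and 5.75 in epiESM. Its partner Krt18 read 8.38 on 3M and 5.26 on 1K, against 2.78 and 2.76 in mESM. For both, 3M was the highest, 1K was between and the groups did not overlap, with differences of 3.93 ± 0.75 for Krt8 (limma adjusted p = 0.0085) and 4.05 ± 0.82 for Krt18 (adjusted p = 0.0112). Cdh1, E-cadherin, which holds ES colonies together, fell in 3M. It read 1.86 on 3M and 4.29 on 1K, against 4.46 and 4.44 in mESM, so 1K sat by mESM and 3M lay below, with a difference of -2.59 ± 0.61 (limma adjusted p = 0.0148).

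Of 10 mesenchymal transition factors, 3 rose in both together (median 1.67), 9 in 3M (median 2.92) and 2 in 1K (median 0.45), with 0 falling in each. Fibroblasts express several of these too. Snai1, a repressor of E-cadherin, read 0.16 on 3M and -1.38 on 1K, against -3.11 and -3.20 in mESM and 0.13 in epiESM. It rose by 2.54 ± 0.42 in both (limma adjusted p = 0.00533). Zeb2, another such repressor, read -0.67 on 3M, against -4.05 and -4.08 in mESM, and was not well above background on 1K. It rose in 3M by 3.39 ± 0.68 (limma adjusted p = 0.00698), and was at least 2.58-fold higher in 3M than in 1K (adjusted p = 0.0276).

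**Figure D3:**
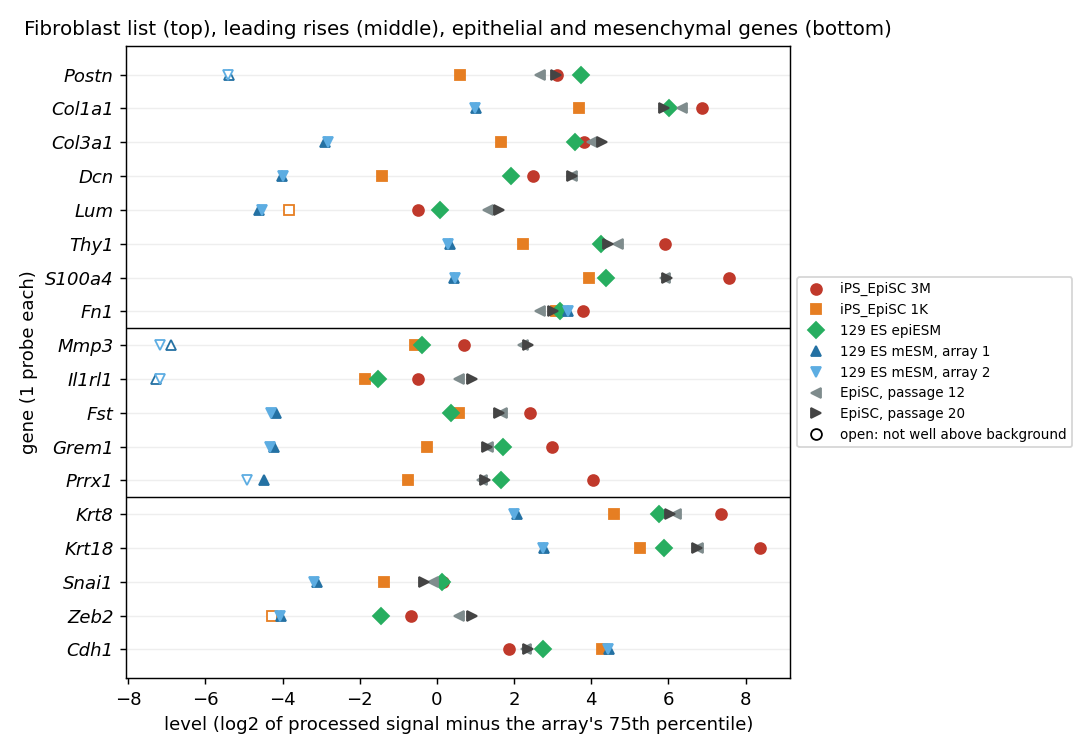
Points give the level of fibroblast, matrix, epithelial and mesenchymal genes on each array (log2 signal relative to the 75th percentile of each array), with open symbols where the probe was not well above background. For Postn, Col1a1, Dcn and Krt8 the mESM arrays are lowest, 1K is between, and 3M, epiESM and EpiSC are high, while Fn1 shows no such order.

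Imprinted genes differed from mESM in part. Of 22 tested, 4 rose and 1 fell in both iPS arrays together (median 0.05), 5 rose and 1 fell in 3M (median 1.55), and 2 rose and 1 fell in 1K (median -0.15). Mest, a gene of the hydrolase fold family expressed from the paternal copy in mesoderm, read 2.84 on 3M and 1.88 on 1K, against -3.91 and -4.68 in mESM. Both iPS arrays were high, as were epiESM (3.25) and EpiSC (4.96 and 5.17), and Mest rose by 6.65 ± 0.47 (limma adjusted p = 7.58e-05), a call kept in 15 of 17 alternative settings. Phlda2, expressed from the maternal copy and a brake on placental growth, was the imprinted gene that fell. It read 2.66 on 3M and 2.52 on 1K, against 4.79 and 4.81 in mESM and 3.37 in epiESM. Neither group overlapped the other, and the differences were -2.14 ± 0.30 for 3M (limma adjusted p = 0.00126) and -2.28 ± 0.30 for 1K (adjusted p = 0.00365).

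The 250 bases before the starts of Mest and Phlda2, which moved in opposite directions on both iPS arrays, and of Mmp3, a leading rise, are shown for reference. They are 5′ to 3′ on the strand of the gene, from the RefSeq promoter table of GRCm38.p6. They lie at chr6:30733256-30733505 (plus strand, the first of 3 starts listed for Mest), chr7:143502525-143502774 (minus strand) and chr9:7445572-7445821 (plus strand). Capitals mark TATAAA, which was searched on both strands.
Mest: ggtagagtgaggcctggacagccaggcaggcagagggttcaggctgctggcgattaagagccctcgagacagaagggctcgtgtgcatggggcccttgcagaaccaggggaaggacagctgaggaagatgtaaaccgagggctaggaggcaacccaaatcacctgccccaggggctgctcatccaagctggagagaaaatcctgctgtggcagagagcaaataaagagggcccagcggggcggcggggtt
Phlda2: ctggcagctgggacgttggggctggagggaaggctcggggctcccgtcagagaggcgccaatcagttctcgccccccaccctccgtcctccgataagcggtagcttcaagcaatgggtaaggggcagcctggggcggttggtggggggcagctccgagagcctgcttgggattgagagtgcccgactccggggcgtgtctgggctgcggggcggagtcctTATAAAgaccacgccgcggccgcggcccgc
Mmp3: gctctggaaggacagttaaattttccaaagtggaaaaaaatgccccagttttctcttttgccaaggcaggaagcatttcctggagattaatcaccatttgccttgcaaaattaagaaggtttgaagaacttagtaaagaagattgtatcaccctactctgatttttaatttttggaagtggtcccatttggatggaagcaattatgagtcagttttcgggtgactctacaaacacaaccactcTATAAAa
The TATAAA of Phlda2 begins 30 bases before the start and that of Mmp3 7 bases before it, and 13% of the 27025 promoters of the same length hold it on either strand. The Mest stretch holds 7 CG pairs, that of Phlda2 21 and that of Mmp3 1, with a median of 6 over all promoters. No methylation was measured here.

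Peg3, a zinc-finger gene of the paternal copy, and Usp29, its neighbour on chromosome 7 driven from the same region, rose together. Peg3 read 0.57 and -0.63 in iPS, against -2.14 and -2.16 in mESM (difference 2.12 ± 0.35, limma adjusted p = 0.00498). Usp29 read 2.38 and 0.40 in iPS, against -4.17 and -4.34 in mESM (difference 5.65 ± 0.66, adjusted p = 0.000994). The epiESM array was the highest for Usp29, at 4.34. Igf2, the growth factor of the paternal copy, and H19, the maternal noncoding RNA beside it, rose in 3M. Igf2 read 3.73 on 3M and 1.39 on 1K, against 0.07 and 0.05 in mESM, and H19 read 1.74 on 3M and -0.88 on 1K, against -0.98 and -0.91 in mESM. Only 3M was high for H19, and the iPS arrays differed by 2.62 ± 0.43 (limma adjusted p = 0.00944). The EpiSC arrays were higher still, at 5.71 and 4.99.

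In the Dlk1-Dio3 region of chromosome 12 the iPS arrays read far apart, but none of the 4 genes given here passed the test of 3M minus 1K. Meg3 (Gtl2), a maternal noncoding RNA known to be silenced in some mouse iPS lines, read 6.62 on 3M and 0.70 on 1K, against 4.00 and 3.95 in mESM and 5.58 in epiESM. The 3M array was above mESM and 1K below it, with a difference between the iPS arrays of 5.92 ± 2.07 (limma adjusted p = 0.122). Rian, the next maternal RNA, read 2.19 on 3M and was not well above background on 1K, against 0.60 and 0.61 in mESM (limma adjusted p = 0.304 for 3M minus 1K). On the NOD ES arrays Meg3 read 6.78 for NOD-ES 4K and 1.69 and 0.79 for the others, so arrays of that label lay as far apart as the iPS arrays. Dlk1, a paternal surface protein of the Notch ligand family, read 0.35 on 3M and was not well above background on 1K, against -0.04 and -0.04 in mESM (limma adjusted p = 0.0796 for 3M minus 1K). Dio3, the paternal enzyme that inactivates thyroid hormone, went the other way. It read 1.17 on 3M and 5.07 on 1K, against -0.51 and -0.55 in mESM, and rose in 1K by 5.60 ± 1.07 (limma adjusted p = 0.0164), while 3M minus 1K did not pass (adjusted p = 0.0915). NOD ES 43 KP/CH and NOD ES 85 KP read 5.07 and 4.87, near 1K, and NOD-ES 4K read 1.69, near 3M.

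**Figure D4:**
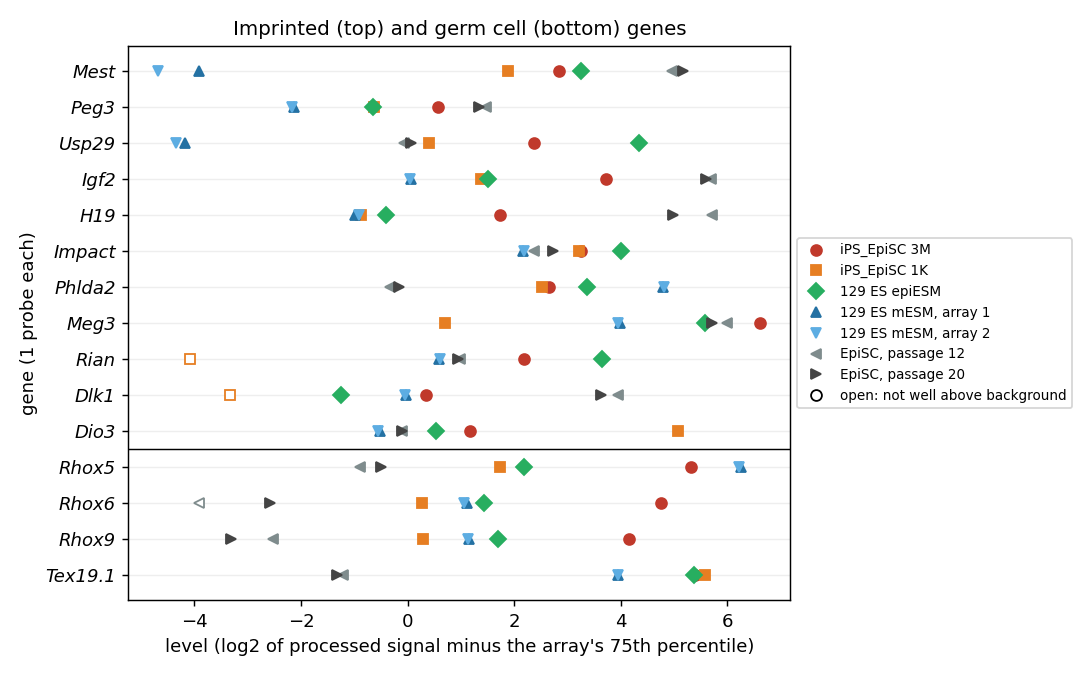
Points give the level of imprinted and germ cell genes on each array (log2 signal relative to the 75th percentile of each array), with open symbols where the probe was not well above background. Mest and Usp29 are lowest on the mESM arrays, Phlda2 is lower on both iPS arrays (2.66 and 2.52) than on mESM (4.79 and 4.81), and Meg3, Rian and Dio3 lie far apart between 3M and 1K.

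In both iPS arrays together 5.56% of germ cell genes rose and 11.1% fell, against 6.83% and 3.80% of all genes. Of 18 germ cell genes, 1 rose and 2 fell in both iPS arrays together (median -0.16), 3 rose and 3 fell in 3M, and 1 rose and 1 fell in 1K. Tex19.1, a guard against transposons in germ and ES cells, rose by 1.54 ± 0.21 (limma adjusted p = 0.00206), with 5.40 and 5.58 in iPS, against 3.94 and 3.95 in mESM and 5.37 in epiESM. Rhox5 (Pem), an X-linked homeobox gene, fell. It read 5.32 on 3M and 1.74 on 1K, against 6.26 and 6.22 in mESM and 2.18 in epiESM. The fall was -4.50 ± 0.25 in 1K (limma adjusted p = 5.67e-05) but only -0.92 ± 0.25 in 3M (adjusted p = 0.0255), and the arrays differed by 3.57 ± 0.28 (adjusted p = 0.000595). Against epiESM the 3M difference turned to 3.14 ± 0.28 (adjusted p = 0.00399). Its neighbours Rhox6 and Rhox9, also homeobox genes of germ cells and placenta, rose in 3M by 3.67 ± 0.68 (limma adjusted p = 0.00467) and 3.00 ± 0.59 (adjusted p = 0.00609). Rhox6 read 4.76 on 3M and 0.28 on 1K, against 1.12 and 1.06 in mESM.

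Genes of the 2-cell stage were higher in 3M. Of 10 tested, 6 rose in 3M (median 2.22), 0 in 1K (median 0.67) and 1 in epiESM (median 1.34). Zscan4c, a telomere regulator that marks a passing 2-cell-like state of ES cells, read 2.23 on 3M and -0.88 on 1K, against -2.22 and -2.14 in mESM and 2.66 in epiESM. It rose in 3M by 4.41 ± 0.90 (limma adjusted p = 0.00763). Tcstv1, another gene of that stage, read 4.23 on 3M and -0.81 on 1K, against -3.06 and -3.26 in mESM and 3.30 in epiESM, and rose in 3M by 7.39 ± 1.42 (adjusted p = 0.00557). The 3M and epiESM arrays were alike for both genes, and 3M minus 1K did not pass (adjusted p = 0.105 and 0.0977). Zscan4c belongs to a family of near-identical copies, so its probe may read several.

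Of 8 DNA methylation enzymes, 1 rose and 0 fell in both iPS arrays together (median -0.22), 1 rose and 2 fell in 3M, and 1 rose and 0 fell in 1K. Uhrf1, which carries maintenance methylation to replicated DNA, read 5.10 and 5.45 in iPS, against 4.21 and 4.22 in mESM, and rose by 1.06 ± 0.26 (limma adjusted p = 0.0243). Dnmt3l, the cofactor of de novo methylation, rose in 3M, at 7.04, against 5.31 and 5.31 in mESM (difference 1.73 ± 0.38, limma adjusted p = 0.0111). In EpiSC Dnmt3l read -2.50 and -2.48, so both iPS arrays were on the ES side. Tet1, which oxidizes methylcytosine, fell in 3M (difference -1.64 ± 0.47, adjusted p = 0.0342).

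In the LIF pathway Stat3 and Junb rose on both iPS arrays, and 4 genes fell in 3M. Of 12 genes, 2 rose and 0 fell in both together (median 0.26), 2 and 4 in 3M (median -0.62) and 2 and 0 in 1K (median 0.52). Stat3, the transducer itself, read 4.73 on 3M and 3.84 on 1K, against 1.69 and 1.68 in mESM. Both were high, and it rose by 2.60 ± 0.37 (limma adjusted p = 0.00253). Socs3, the feedback inhibitor that STAT3 induces, read 3.08 on 3M and 4.97 on 1K, against 5.52 and 5.55 in mESM. It fell in 3M (difference -2.46 ± 0.55, limma adjusted p = 0.0115), and the 1K difference of -0.56 ± 0.55 did not pass (adjusted p = 0.572). The others that fell in 3M were Bcl3, Pim1 and Pim3.

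Egr1, Fos and Junb, which are induced early by growth signals, rose on both iPS arrays. Egr1, a zinc-finger factor that ERK signalling induces, read 2.65 and 3.12 in iPS, against -1.16 and -1.12 in mESM, 4.01 in epiESM and 5.53 and 5.56 in EpiSC. The mESM arrays were far below the others, and Egr1 rose by 4.03 ± 0.29 (limma adjusted p = 7.58e-05, kept in 15 of 17 alternative settings). Fos, an AP-1 subunit, read -0.54 and 0.82 in iPS, against -3.44 and -3.41 in mESM, a rise of 3.57 ± 0.45 (adjusted p = 0.00155). Junb, its AP-1 partner, rose by 2.23 ± 0.24 (limma adjusted p = 0.000738). Of the 12 FGF-ERK genes, 3 rose (Dusp4, Egr1 and Fos) and 1 fell (Ier3, an immediate early response gene) in both together. The list median was -0.19. These called genes lay on the same side of mESM in epiESM, so they do not set the iPS arrays apart from it. In 3M 3 rose and 3 fell, and in 1K 3 rose and 1 fell.

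Among 12 WNT targets, 3 rose and 1 fell in both iPS arrays together (median 0.62), 4 rose and 1 fell in 3M, and 1 rose and 1 fell in 1K. Sp5, a repressor that β-catenin induces, read 1.25 on 3M and -0.56 on 1K, against -3.63 and -3.88 in mESM and 3.39 in epiESM. It rose by 4.10 ± 0.77 (limma adjusted p = 0.00815), with epiESM higher still. Lef1, the DNA-binding partner of β-catenin, rose in 3M by 2.76 ± 0.59 (limma adjusted p = 0.00929) and not in 1K, and the arrays differed by 2.90 ± 0.68 (adjusted p = 0.0355). Id3, a BMP target that blocks differentiation factors, read 2.52 and 1.27 in iPS, against -0.61 and -0.60 in mESM, and rose by 2.50 ± 0.34 (adjusted p = 0.00212).

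Part of the stress and p53 genes rose. Of 15 genes of the amino acid and ER stress response, 5 rose in both together (median 0.90), 3 in 3M and 6 in 1K. Atf3, a factor induced by many stresses, read 1.19 on 3M and 2.37 on 1K, against -2.63 and -2.74 in mESM and 1.39 in epiESM. It rose by 4.46 ± 0.39 (limma adjusted p = 0.000246), and both mESM arrays lay below all the others used here. Chac1, which degrades glutathione under stress, rose by 2.51 ± 0.36 (limma adjusted p = 0.00298) and Ddit3 (CHOP) by 1.77 ± 0.21 (adjusted p = 0.00121). When epiESM took the place of mESM, the differences for both together were 0.39 ± 0.48 for Atf3, 0.02 ± 0.45 for Chac1 and 0.58 ± 0.26 for Ddit3. Trib3, a CHOP target, read 2.68 on 3M and 4.42 on 1K, against 1.81 and 1.80 in mESM, and 3M minus 1K was -1.74 ± 0.39 (adjusted p = 0.0301). Of 12 p53 genes 6 rose and 0 fell in both together (median 0.76), 6 rose in 3M and 1, Sesn2, in 1K. Cdkn1a (p21), the cell-cycle inhibitor that p53 induces, read 2.85 on 3M and 1.04 on 1K, against -0.15 and -0.15 in mESM, and rose by 2.09 ± 0.47 in both together (limma adjusted p = 0.0167) and by 3.00 ± 0.32 in 3M (adjusted p = 0.000363). The 1K difference of 1.19 ± 0.32 did not pass. Cdkn1a read 2.39 on epiESM, and from that array the difference for both together turned to -0.44 ± 0.57.

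Some glucose and sterol genes fell. Of 20 genes of glycolysis and glucose transport, 0 rose and 5 fell in both iPS arrays together (median -0.45), 1 rose and 6 fell in 3M, and 0 rose and 3 fell in 1K. Slc2a1, the glucose transporter GLUT1, read 4.69 and 5.39 in iPS, against 6.78 and 6.75 in mESM and 5.12 in epiESM. It fell, with a difference of -1.72 ± 0.25 (limma adjusted p = 0.00275), and mESM was above each of the others. Vegfa, the hypoxia-induced vessel growth factor, and Bnip3, a hypoxia-induced mitophagy receptor, had differences of -1.64 ± 0.32 (adjusted p = 0.00937) and -2.08 ± 0.40 (adjusted p = 0.00894). Ldha, lactate dehydrogenase, read 6.58 and 6.68 in iPS, against 7.51 and 7.52 in mESM, a fall of smaller size (-0.89 ± 0.22, limma adjusted p = 0.0273). Measured from epiESM, the differences for both together were -0.08 ± 0.30 for Slc2a1 and 0.63 ± 0.39 for Vegfa. Bnip3 and Ldha stayed lower, at -1.45 ± 0.49 and -1.14 ± 0.27. Of 15 cholesterol synthesis genes, 0 rose and 3 fell in both together (median -0.87), 1 rose and 5 fell in 3M, and 0 rose and 3 fell in 1K. Dhcr7, which makes the last step to cholesterol, and Insig1, the sterol sensor, had differences of -2.01 ± 0.25 (limma adjusted p = 0.00151) and -1.64 ± 0.31 (adjusted p = 0.00859). For Insig1 only 1 of the 2 iPS arrays, 3M, was well above background. Their differences from epiESM were -0.19 ± 0.31 and -1.43 ± 0.38.

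Of 12 antigen presentation genes, 2 rose and 2 fell in both together (median 0.20), 6 rose and 0 fell in 3M (median 0.93), and 0 rose and 3 fell in 1K (median -0.98). On 1K 7 of the 12 were well above background, against 12 on each mESM array. The 1K median came to -0.05 when dim genes were set to their bounds. B2m, the light chain of MHC class I, read 2.08 on 3M and 0.16 on 1K, against 0.29 and 0.22 in mESM and 2.98 in epiESM. It rose in 3M by 1.82 ± 0.43 (limma adjusted p = 0.0147), and 1K sat by mESM. H2-D1, a class I heavy chain, fell in 1K, at 0.21, against 1.58 and 1.58 in mESM (difference -1.37 ± 0.32, limma adjusted p = 0.0317). Tapbp (tapasin), which loads peptides, rose by 1.15 ± 0.33 in both together (adjusted p = 0.0477).

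Many of the genes that fell most were not well above background in the iPS arrays. Slc47a1, an exporter of organic cations, was not well above background on 3M, 1K or epiESM, and read 1.24 and 1.25 in mESM. It fell at least 12.6-fold in both iPS arrays (limma adjusted p = 0.000133). Slc39a10, a zinc importer, fell at least 6.36-fold (adjusted p = 0.00229). In contrast to Slc47a1 it read -0.37 in epiESM, and against epiESM it was lower in 3M (limma adjusted p = 0.0361), where it was not well above background, while 1K did not pass (adjusted p = 0.0765). Prmt8, an arginine methyltransferase bound to membranes, fell at least 6.71-fold (limma adjusted p = 0.00792), and Fzd3, a Wnt receptor, at least 2.46-fold (adjusted p = 0.00162). Wdr86, a WD-repeat protein, was measured on all 4 arrays, with -1.01 and -0.35 in iPS, against 2.40 and 2.41 in mESM. It differed by -3.09 ± 0.24 (limma adjusted p = 0.000107), and epiESM (-1.28) was as low as the iPS arrays. Acp5, an acid phosphatase of osteoclasts, read -1.61 on 3M, was not well above background on 1K, and read 1.17 and 1.14 in mESM (difference -3.06 ± 0.29, adjusted p = 0.00038).

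Of the lineages checked, trophectoderm genes rose in part, and endoderm genes differed between the iPS arrays. Of 14 genes of primitive endoderm, 3 rose in 3M (Dab2, Col4a1 and Col4a2) and 5 fell in 1K (Gata6, Dab2, Lamb1, Amn and Cubn), 6 were higher in 3M than in 1K by the test of that difference, and in both together 0 rose and 0 fell. The median level of the list was -0.53 on 3M and -2.22 on 1K, against -0.80 and -0.77 in mESM. Only 5 of the 14 were well above background on 1K, against 10 on 3M and 12 on each mESM array, so the 1K level is poorly measured. The median difference of 1K from mESM was -0.67, and it came to -0.39 when dim genes were set to their bounds. Of 12 neuroectoderm genes 0 rose and 0 fell in both together, 2 rose in 3M (Zic1 and Ncam1) and 0 rose and 0 fell in 1K. Of 12 trophectoderm genes 3 rose (Gata3, Gata2 and Krt7) and 0 fell in both together, with a median of 1.23 that came to 0.06 when dim genes were set to their bounds. In 3M 4 rose, and in 1K 1 (Gata3). Of 15 mesendoderm genes 1 rose (Wnt3) and 1 fell (Tbx6) in both together, 3 rose and 1 fell in 3M, and 0 rose and 1 fell in 1K.

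Of 4 Y-linked genes, 2 rose in 3M and 0 in 1K. Ddx3y, a Y-linked RNA helicase, read -0.41 on 3M and 0.41 on epiESM and was not well above background on 1K or on either mESM array. Eif2s3y, a Y-linked translation factor, read -0.54 on 3M and 2.61 on epiESM, and was likewise not well above background on 1K and mESM. Both rose in 3M against mESM, at least 23.1-fold for Ddx3y (limma adjusted p = 0.0444) and at least 21.1-fold for Eif2s3y (adjusted p = 0.0329). The difference between 3M and 1K itself did not pass (adjusted p = 0.281 and 0.345). Among the NOD ES arrays Ddx3y read 0.93 on NOD-ES 4K and -3.96 on NOD ES 43 KP/CH, and it was not well above background on NOD ES 85 KP. Xist, the RNA that coats the inactive X chromosome, read -2.33 on 3M, was not well above background on 1K, and read -4.38 and -4.28 in mESM, without passing (limma adjusted p = 0.141 for 3M).

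The iPS arrays were also set against each other, which tests their difference itself. Of 23125 genes, 6.43% differed, with 1156 higher and 330 lower in 3M than in 1K, and for 736 of the higher ones 1K was not well above background. Mgam, an intestinal sugar-cutting enzyme, read 3.19 on 3M and 2.42 on epiESM and was not well above background on 1K or mESM. It was at least 37.5-fold higher in 3M than in 1K (limma adjusted p = 0.017). Aqp1, a water channel, stood at least 4.66-fold above 1K in 3M (adjusted p = 0.00186), and Hoxc9, a homeobox gene of the posterior body that embryonic fibroblasts also express, at least 8.53-fold (adjusted p = 0.00198). Inhbb, the subunit of activin B, was 1.72 ± 0.31 higher in 3M (limma adjusted p = 0.0135), with 1.62 on 3M and -0.10 on 1K, against 3.07 and 3.00 in mESM, so that it fell on both against mESM and more on 1K. From epiESM, the Inhbb difference had the other direction in 3M (1.425 ± 0.31) and was -0.30 ± 0.31 in 1K. Olig1 and Olig2, neighbouring factors of the oligodendrocyte lineage on chromosome 16, were lower in 3M. Olig1 was not well above background on 3M or epiESM, and read 1.03 on 1K and 0.84 and 0.83 in mESM, at least 14.1-fold lower in 3M than in 1K (limma adjusted p = 0.0301). Olig2 was at least 5.01-fold lower (adjusted p = 0.0464).

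Against the epiESM array in place of the mESM arrays, a comparison added after the data were seen, 20 genes were higher (0.0864%) and 3 lower (0.0130%) in both iPS arrays together, out of 23160 (0.0993% in all). For 3M alone 581 were higher (2.51%) and 284 lower (1.23%), or 3.74% in all, and for 1K 254 were higher and 452 lower (1.95%), or 3.05% in all. Mest had a difference of -0.41 ± 0.61 for 3M minus epiESM (limma adjusted p = 0.77) and Egr1 -1.36 ± 0.37 (adjusted p = 0.0748), both negative and not past the threshold. The corresponding differences from mESM were 7.13 ± 0.53 and 3.79 ± 0.32, both positive and past it. For these genes the distance from ES cells therefore depended on which 129 ES culture was the reference. Gbx2, given above, kept its direction against epiESM, and its call in 3M and in 1K but not in both together. Pou3f1 kept its direction and its call in 3M, where it was 2.81 ± 0.35 higher than in epiESM, which itself read below mESM for this gene. Others that did so in 3M included Fgf5, Fst (2.06 ± 0.36), H19 (2.15 ± 0.43), Rhox6 (3.33 ± 0.78) and Bnip3 (-2.03 ± 0.45). In contrast, 24 of the called genes given or plotted for 3M had the other sign against epiESM.

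**Figure D5:**
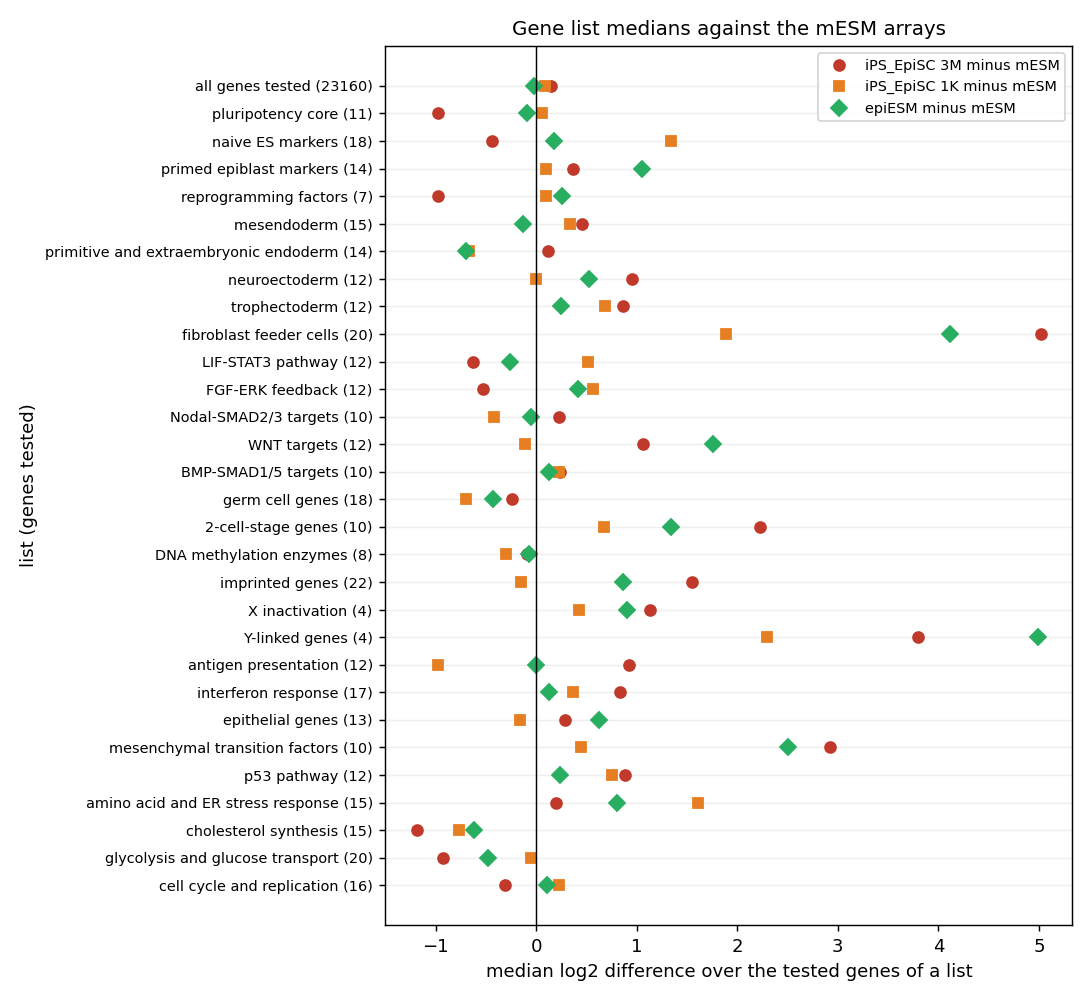
Points give the median log2 difference from the mESM arrays over the tested genes of 29 lists and over all genes, for iPS_EpiSC 3M, iPS_EpiSC 1K and the epiESM array, which share the mESM arrays. The fibroblast list stands out for 3M (5.02), epiESM (4.12) and 1K (1.89), and the core list lies at -0.98 for 3M.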

How the data were processed

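RNA of 16 samples (0.5 µg each, Cy3-labelled, per the labels) was hybridised to 1-colour Agilent mouse arrays. The deposited processed signal is a spot intensity from Feature Extraction 10.1.1.1, background-corrected inside each array and not scaled across arrays, per the file headers. A deposited table of log2 values from the authors ranks features like the matching arrays. The submitters' processing notes name limma, with no version.

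Outlier spots were dropped among 43379 gene spots an array, and repeat spots of a probe were averaged on the log2 scale, after each array's 75th percentile had been subtracted. Probes passed where at least 2 arrays had them well above background (34288 of 41174), and each gene was read by its brightest passing probe on average. RefSeq tables renamed 22951 probes through their accession, 6659 through the symbol and 3109 through an older one, and 8455 kept the name in the files. limma 3.58.1 (R 4.3.3) was fitted to all 16 arrays with a mean for every labelled group, or for each iPS array, and Benjamini-Hochberg adjustment ran over all genes. No p-value here speaks of more than how these arrays spread, and that spread may be technical. Where no array of a side was well above background, its level was set to the higher of the probe's own signal and the lowest signal that was, and the fold is written as a bound. The number of arrays limits the precision.

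The arrays, the 29 gene lists and the tests were chosen with earlier results of these data known. Genes to be named were the core, naive, primed, reprogramming, X, Y, imprinted and fibroblast lists, up to 5 of each other list, and the 15 largest rises and 15 largest falls of each iPS comparison. Members named only to spell out a count were chosen after their values were seen. L1td1, Prdm14, Fgf4, Dusp5, Rtl1 and Jpx were among the list genes not tested. One gene counted with its list is not reported here. On simulated data of 22986 genes, changes of 1, 2 and 4 log2 units were recovered in 7.46%, 44.8% and 80.3% of cases for both iPS arrays, and in 1.49%, 25.4% and 66.7% for 3M alone. The simulated spread was taken around the labelled group means, with 3M and 1K sharing 1 mean. In the 3M fit each has its own mean, so the simulated rates for 3M do not give the power of that fit. Alternatives covered background correction, scaling, filters, probes, slide and the arrays used.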

Additional observations from a re-analysis of the deposited data

How the results depend on the processing

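Counts of called genes are given in the order both iPS arrays, 3M, 1K, 3M minus 1K and epiESM minus mESM, with 2460, 4630, 1615, 1486 and 914 as reported. The normexp background correction gave 7, 145, 0, 0 and 21, with 867 and 1193 genes at an unadjusted p under 0.05 where the count was 0. It left 6 arrays of other groups with a raised low end, and without those 6, a setting added after seeing the data, it gave 208 (155 higher), 3914 (3349 higher), 47 and 4 for the iPS comparisons. Quantile normalization moved the median of all genes for both iPS arrays to -0.12 and for 1K to -0.17. The deposited values split epiESM minus mESM into 558 higher and 580 lower, and 3M minus 1K into 1393 and 722. Without the filter on dim probes there were 1883, 3889, 1052, 978 and 584, and with the mean over a gene's probes 985 for 1K and 954 for 3M minus 1K. With a filter of 8 arrays 3M minus 1K had 2171. Slide as a fixed block gave 1617, 10020, 11083, 10855 and 58, and as a random block 1258, 5867, 5971, 9217 and 741. The mESM arrays averaged to 1 gave 250, 2236, 171, 754 and 103. Leaving out single arrays gave 269 to 5130 for both, 2242 to 8597 for 3M, 175 to 6145 for 1K, 754 to 6005 for 3M minus 1K and 99 to 2572 for epiESM. The low ends came without an mESM array and the high ends without NOD-ES 4K, and leaving out 3M or 1K gave 1615 and 4630 for both. With only the 4 arrays there were 0 (5634 unadjusted). Added after seeing the data, pooling epiESM with mESM gave 631, 1997 and 98 for the iPS comparisons, epiESM in place of mESM gave 23, 865 and 706, and leaving out 1K with NOD-ES 4K gave 8597 for 3M and 5758 for epiESM.

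With epiESM in place of mESM, 560 of the 2460 called differences changed sign for both iPS arrays, 539 of 4630 for 3M and 340 of 1615 for 1K. The changes of sign among named genes in the other settings follow, and the cause was not tested. Under normexp, with all arrays and without the 6, 3M minus 1K was 0.0121 for Slc47a1 and 0.45 for Fzd3. Dppa5a in 3M was -1.19 in the deposited values, Fgf8 in 3M minus 1K was -0.45 with probes averaged, and Rhox5 in 3M was 0.43 with epiESM pooled in. The fixed slide block gave 0.62 for Nanog, 3.31 for Tfcp2l1, 1.05 for Otx2, -1.74 for Sfrp2, -2.89 for Meg3 and -2.41 for Dlk1 in 3M. In 1K it gave -3.32 for Dppa4, -3.68 for Dppa3, 1.51 for Cdh1, -3.20 for Tcstv1, 1.82 for Olig2, -3.31 for Ddx3y and -2.19 for Xist. No paired analysis was possible because only the mESM titles carry replicate numbers. Signal over background limits the low genes, since fewer spots were well above background on the iPS arrays than on mESM.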
